A study of Mus musculus with 8 samples.

Results

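The genes described here are 10 members of the circadian clock and of the family of output factors it drives in liver. Clock and Npas2 encode activators, Per1, Per2, Per3, Cry1 and Cry2 encode repressors, and Dbp, Tef and Nfil3 encode bZIP factors that carry the rhythm to metabolic genes. They were chosen by symbol for their known roles, with earlier results of these data known, and all 10 were found among 22052 genes in the deposited table. All 10 passed the minimum mean of 0.5 that 20055 genes passed, so none of them was left out.

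Whole livers of 8 adult male C57BL/6 mice, all 8 weeks old and all given an intraperitoneal injection of corn oil, were profiled by RNA-seq. The dKO group held 4 mice with floxed alleles of Zfp36l1 and Zfp36l2 and Alb-Cre (genotype Zfp36l1fl/fl/Zfp36l2fl/fl/Alb-Cre). The control group held 4 mice with the same floxed alleles and no Cre (Zfp36l1fl/fl/Zfp36l2fl/fl), so an effect of the Cre transgene and an effect of the deletion cannot be told apart. The albumin promoter drives Cre in hepatocytes. Which other cells of a whole liver keep the floxed genes was not tested. ZFP36L1 and ZFP36L2 bind AU-rich stretches in the 3′ ends of mRNAs and hasten their decay. Each mouse gave 1 library. For the time of day at which livers were taken, the sources used here hold no entry.

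The mammalian clock is a feedback loop of transcription. CLOCK, or its relative NPAS2, pairs with BMAL1 (gene Arntl) and switches on the Per and Cry genes and Dbp through E-boxes, and PER and CRY proteins return to block that pair. A second loop runs through NR1D1 and NR1D2, which repress Arntl, Npas2, Clock and Nfil3 through ROR elements where ROR proteins activate. DBP, TEF and HLF form the PAR-bZIP family and activate genes at D-boxes, and NFIL3 represses at the same boxes. In mouse liver the transcripts follow each other through the day: Nr1d1 peaks by day, Dbp and the Per genes towards dusk, Cry1 later in the night, and Arntl, Npas2, Clock and Nfil3 around dawn. A single collection gives 1 point on each of these curves. A shift of phase, a change of amplitude and a change of mean level therefore cannot be told apart here.

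Sequences around the start sites show where these circuit elements lie among the genes described. RefSeq windows of 250 bases before to 50 bases after each start (GRCm38.p6) were found for all 10 genes, 13 windows in all. They were searched on both strands for the E-box CACGTG, the E-prime box CACGTT, the D-box TTANGTAA, the ROR element TAGGTCA and the cyclic AMP response element TGACGTCA. An exact E-box lay in 4 of the 13 windows, those of Tef and Cry1 and 1 of Per1, whose other window held none. It lay in 7.15% of all 32851 windows and in 8.92% of the windows of tested genes. An E-prime box lay in 2 of the 13, those of Cry1 and Cry2, against 4.68% of all windows and 4.92% of the windows of tested genes. A D-box was found in 1 of the 13, that of Per3, against 2.32% of all windows and 1.73% of the windows of tested genes. A ROR element was found in 1 of the 13, that of Nfil3, against 2.61% and 2.06%. The cyclic AMP response element was in no window of the 10 genes, against 1.79% of all and 2.67% of the windows of tested genes. The windows of Clock, Npas2, Per2 and Dbp held none of these exact patterns, which says only that these letters are not in those windows. No match printed here overlapped another, and a match is a description of letters, not of binding.

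The Per3 window is shown whole because Per3 had the largest rise among the 10 genes and held the only D-boxes, of which there were 2, at 205 and 158 bases upstream of the start. It lies on the minus strand at chr4:151044616-151044915 and is written 5′ to 3′ along the gene, with the D-boxes in capitals.
Per3: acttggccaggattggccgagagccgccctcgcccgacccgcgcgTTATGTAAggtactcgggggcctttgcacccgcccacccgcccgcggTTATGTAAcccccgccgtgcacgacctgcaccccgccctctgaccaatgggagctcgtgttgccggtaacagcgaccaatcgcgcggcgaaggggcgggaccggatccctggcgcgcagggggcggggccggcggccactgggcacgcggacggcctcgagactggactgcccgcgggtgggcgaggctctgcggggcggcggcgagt

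The other matches are given next with their flanks, because they set genes that rose (Per1, Tef), a gene that fell (Nfil3) and genes that did neither (Cry1, Cry2) beside each other. Capitals mark the match, and all are written 5′ to 3′ along the gene. Coordinates in this paragraph span each printed stretch with its flanks. The stretches of Cry1 share bases, while its boxes do not. The Per1 E-box lies 166 bases upstream of the first of its starts on the plus strand (chr11:69098773-69098798), and the Tef E-box 127 bases upstream of the first of its starts on the plus strand (chr15:81802536-81802561). Tef has another E-box 138 bases upstream of its next start (chr15:81811266-81811291). Cry1 has both boxes on the minus strand, 79 and 60 bases upstream (chr10:85185118-85185143 and chr10:85185099-85185124). The Cry2 match lies 166 bases upstream on the minus strand (chr2:92434220-92434245), and the Nfil3 match 12 bases upstream, in reverse orientation, on the minus strand (chr13:52981035-52981061). The E-prime boxes of Cry1 and Cry2 are in reverse orientation too.
Per1 E-box: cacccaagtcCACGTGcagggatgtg
Tef E-box, first start: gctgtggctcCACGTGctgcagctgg
Tef E-box, next start: cctggcccagCACGTGtctacatcgt
Cry1 E-prime box: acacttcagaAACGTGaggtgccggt
Cry1 E-box: tgccggtggtCACGTGgggtgcatgc
Cry2 E-prime box: acatggtgggAACGTGagggggcgga
Nfil3 ROR element: cgctcggaacTGACCTActaacacaca

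The 3′ untranslated regions were searched for TATTTAT, a core of the AU-rich stretches that the ZFP36 family binds, in protein-coding transcripts of GENCODE M21 (GRCm38). It was present in 2 of the 10 genes, Clock and Per1, or 20% of them, against 30.1% of 15424 tested genes with an annotated 3′ untranslated region. The site of Clock lies at chr5:76215763-76215769 on the minus strand and that of Per1 at chr11:69109697-69109703 on the plus strand. They are shown, with the 7 letters in capitals, because 1 of these genes fell and the other rose.
Clock: agttggaaTATTTATgtaaatgg
Per1: gctgcactTATTTATttgggaga

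Levels below are normalised read counts, that is, reads per gene divided by 1 size factor per library by the authors. They are not divided by gene length, although the deposited table carries the name of a length-scaled unit. Libraries held 17273389 to 19299556 reads in dKO livers and 15253827 to 17745944 in control livers. A group difference is on the log2(value + 0.5) scale, dKO minus control, with its standard error (SE), and was tested with limma over all 20055 genes with Benjamini-Hochberg adjustment. For genes with few reads that scale gives too small a change. Both targeted genes fell in dKO livers. Zfp36l1 averaged 226 ± 27.6 in dKO livers and 1370.2 ± 194 in control livers (SD, n = 4 each; limma adjusted p = 1.65e-08). Zfp36l2 averaged 796 ± 94.4 in dKO livers and 1584 ± 393 in control livers (SD, n = 4 each; limma adjusted p = 0.000689). On the first principal component, which held 74.5% of the variance, dKO livers scored -68.9 to -57.5, controls 1 to 3 scored 67.7 to 76.5 and control 4 scored 43.3. Of the 8 hepatocyte markers searched by symbol, 7 were found, none of them at 0. The symbol Tf matched no row, which does not show that its gene is absent. The summed level was 1250709 to 1316244 in dKO livers and 1189439 to 1314157 in control livers. Alb held the most of it, with means of 824048 in dKO livers and 773160 in control livers. The sum therefore says little about the other markers.

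In dKO livers the activators Clock and Npas2 fell, all 3 Per genes rose, Dbp and Tef rose, and Nfil3 fell. Cry1 and Cry2 did not pass the test. Of the 10 genes, 5 were higher and 3 lower at a limma adjusted p under 0.05, where 38.2% of all tested genes were called, 21.2% higher and 17.0% lower. For 7 of the 10 genes no dKO liver overlapped a control liver, against 36.4% of all tested genes. The median log2 change was 0.48 for the 10 genes and 0.03 for all tested genes. In bulk liver, fewer cells of a type and less RNA per cell cannot be told apart, and this holds for every value below.

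**Figure D1:**
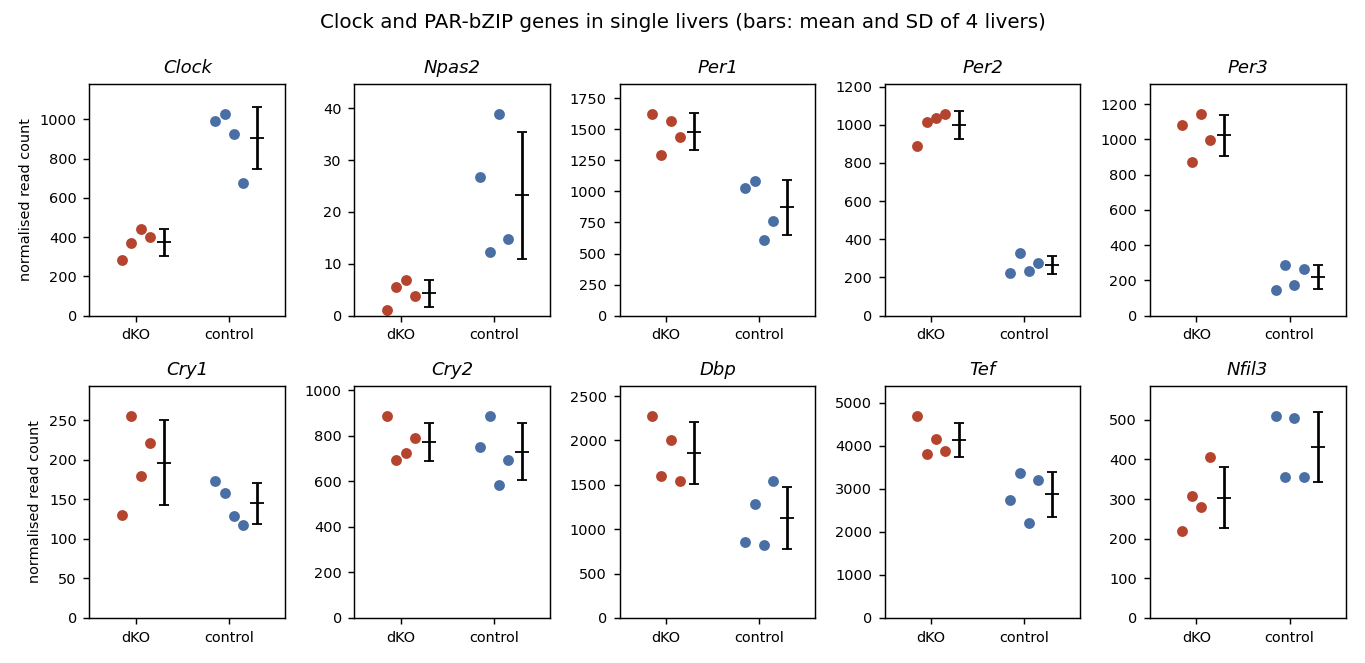
Normalised read counts (vertical axes, each starting at 0) of the 10 clock and PAR-bZIP genes in single livers, with dKO livers in red left of control livers in blue. Points are mice 1 to 4 from left to right, and bars give the mean and SD of 4 livers. The groups share no value for Clock, Npas2, Per1, Per2, Per3, Dbp and Tef, and they overlap for Cry1, Cry2 and Nfil3.

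Clock (ENSMUSG00000029238, chr5:76209868-76304792, minus strand), the activator that pairs with BMAL1, had 282, 368, 440.3 and 402 normalised read counts in dKO livers 1 to 4, against 991, 1028, 925 and 677 in control livers 1 to 4. All dKO livers lay below all control livers, and control 4 was the control nearest to them. The means were 373 ± 67.7 in dKO livers and 905 ± 158 in control livers (SD, n = 4 each), 2.43-fold lower in dKO livers. The log2 change was -1.28 (SE 0.15, limma adjusted p = 3.5e-05), with a 95% interval of -1.61 to -0.95.

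Npas2 (ENSMUSG00000026077, chr1:39193731-39363236, plus strand), which can take the place of CLOCK beside BMAL1, was the least abundant of the 10 genes per length. It had 1.01, 5.55, 6.81 and 3.72 normalised read counts in dKO livers 1 to 4, against 26.7, 12.3, 38.9 and 14.9 in control livers 1 to 4. These values rest on 19 reads over the dKO livers and 88 over the control livers, with a single read in dKO 1, which is below the floor of 3 reads that a count of 0 allows. The groups did not overlap, and controls 1 and 3 stood above controls 2 and 4. Npas2 averaged 4.27 ± 2.52 in dKO livers and 23.2 ± 12.2 in control livers (SD, n = 4 each). Its log2 change of -2.39 had the widest error of the 10 (SE 0.57, 95% interval -3.62 to -1.16, limma adjusted p = 0.00508) and lay between -2.84 and -1.55 under the other settings tried. Because dKO 1 held 1 read, the size of this fall is not firmly fixed at this depth.

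The Per genes encode the proteins that, with CRY, close the main loop. Per1 (ENSMUSG00000020893, chr11:69095217-69109960, plus strand) had 1624, 1295, 1569.5 and 1439 normalised read counts in dKO livers 1 to 4, against 1031, 1082, 611 and 765 in control livers 1 to 4. Every dKO liver exceeded every control liver, and controls 3 and 4 were the lowest. Per1 averaged 1482 ± 147 in dKO livers and 872 ± 223 in control livers (SD, n = 4 each), a log2 change of 0.80 (SE 0.16, limma adjusted p = 0.00148).

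Per2 (ENSMUSG00000055866, chr1:91415982-91459324, minus strand) had 890.0, 1012, 1035 and 1057 normalised read counts in dKO livers 1 to 4, against 224, 329, 235 and 274 in control livers 1 to 4. The lowest dKO liver stood well above the highest control liver. The means were 998 ± 74.6 in dKO livers and 266 ± 47.8 in control livers (SD, n = 4 each), 3.76-fold higher in dKO livers. With a log2 change of 1.92 (SE 0.12, limma adjusted p = 1.83e-07), Per2 had the smallest adjusted p of the 10 genes.

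Per3 (ENSMUSG00000028957, chr4:151003652-151044665, minus strand), which is thought to be less needed for the rhythm than Per1 and Per2, had 1080.0, 875, 1145 and 997 normalised read counts in dKO livers 1 to 4. Control livers 1 to 4 had 146, 289, 176 and 266. The groups lay far apart, with controls 1 and 3 lower than controls 2 and 4. Per3 averaged 1024 ± 117 in dKO livers and 219 ± 69.4 in control livers (SD, n = 4 each), 4.67-fold higher in dKO livers. Its log2 change was 2.27 (SE 0.19, 95% interval 1.86 to 2.68, limma adjusted p = 1.94e-06).

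The 3 Per transcripts thus changed by unequal amounts, and their make-up differed between groups. Per kilobase of exon, Per1 stood at 263 in dKO livers and 155 in control livers, Per2 at 171 in dKO livers and 45.3 in control livers, and Per3 at 107 in dKO livers and 22.8 in control livers. Of the 3 levels summed per length, Per1 took 48.7% ± 2.48 in dKO livers and 69.0% ± 5.95 in control livers (SD, n = 4 each). Per2 took 31.7% ± 3.29 in dKO livers and 20.7% ± 3.38 in control livers. Per3 took 19.7% ± 1.05 in dKO livers and 10.3% ± 2.83 in control livers. The order Per1, Per2, Per3 per length was the same in all 8 livers.

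The Cry genes encode the other partners of the repressor complex. Cry1 (ENSMUSG00000020038, chr10:85131700-85185064, minus strand) had 131, 255, 179 and 221 normalised read counts in dKO livers 1 to 4, against 174, 158, 129 and 118 in control livers 1 to 4. DKO livers 2, 3 and 4 stood above all controls, and dKO 1 lay among the lower controls. The means of 196 ± 53.7 in dKO livers and 145 ± 25.6 in control livers (SD, n = 4 each) gave a log2 change of 0.41 (SE 0.20, 95% interval -0.02 to 0.85), which did not pass the test (limma adjusted p = 0.124). Without dKO 1 the log2 change was 0.59 and passed it (limma adjusted p = 0.0199).

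Cry2 (ENSMUSG00000068742, chr2:92403646-92434043, minus strand) had 885, 692, 726 and 791 normalised read counts in dKO livers 1 to 4, against 749.6, 886, 586 and 695 in control livers 1 to 4. The groups overlapped over most of their range. Cry2 averaged 774 ± 84.9 in dKO livers and 729 ± 125 in control livers (SD, n = 4 each). The 95% interval of the log2 change of 0.09 ran from -0.17 to 0.36 (limma adjusted p = 0.58), so a difference beyond that range in either direction lies outside what these livers show. GENCODE M21 places the noncoding D930015M05Rik on the opposite strand over Cry2 exons, with 18.0 normalised read counts in dKO livers and 23.8 in control livers.

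Dbp (ENSMUSG00000059824, chr7:45705088-45710203, plus strand), a PAR-bZIP activator known for a steep rhythm in liver, had 2274, 1597, 2006 and 1547 normalised read counts in dKO livers 1 to 4. Control livers 1 to 4 had 857, 1287, 823 and 1542. The groups did not overlap, but by a narrow margin, since dKO 4 and control 4 held nearly the same level. Dbp averaged 1856 ± 346 in dKO livers and 1127 ± 348 in control livers (SD, n = 4 each), a log2 change of 0.75 (SE 0.19, 95% interval 0.34 to 1.17, limma adjusted p = 0.00743). Exons of Dbp overlap those of Sphk2, a sphingosine kinase gene, on the opposite strand. Sphk2 averaged 667 ± 29.5 in dKO livers and 1431 ± 221 in control livers (SD, n = 4 each; log2 change -1.09, limma adjusted p = 4.81e-06), and the sources used here do not state whether reads were counted by strand.

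Tef (ENSMUSG00000022389, chr15:81802421-81826863, plus strand), a PAR-bZIP activator of the same boxes, had 4689, 3817, 4146 and 3879 normalised read counts in dKO livers 1 to 4. Control livers 1 to 4 had 2731, 3363, 2199 and 3211. Every dKO liver exceeded every control liver. Tef averaged 4133 ± 397 in dKO livers and 2876 ± 526 in control livers (SD, n = 4 each), and its log2 change of 0.54 (SE 0.12, limma adjusted p = 0.00402) was the smallest among the 5 genes that rose. The antisense Gm17597, which overlaps Tef exons, held 4.82 normalised read counts in dKO livers and 2.65 in control livers.

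Nfil3 (ENSMUSG00000056749, chr13:52967209-52981073, minus strand), the repressor that competes with the PAR-bZIP activators, had 220.2, 309, 279 and 405 normalised read counts in dKO livers 1 to 4. Control livers 1 to 4 had 509, 356, 505 and 355. The groups overlapped, because dKO 4 stood above controls 2 and 4. Nfil3 averaged 303 ± 77.1 in dKO livers and 431 ± 87.7 in control livers (SD, n = 4 each), a log2 change of -0.52 (SE 0.18, 95% interval -0.91 to -0.12, limma adjusted p = 0.0387). This call held in 11 of 18 other settings and was lost without dKO 1 (log2 change -0.38, limma adjusted p = 0.113), without control 1 (-0.43, adjusted p = 0.114) and without control 3 (-0.44, adjusted p = 0.102). It was also lost without dKO 2 (adjusted p = 0.0648), without dKO 3 (0.0854) and with the replicate number as a block (0.0731). An exact permutation test of the group difference, 2-sided and over all 70 ways to split 8 livers into groups of 4, had p = 0.0857 for Nfil3, p = 0.114 for Cry1 and p = 0.6 for Cry2. The same exact permutation test had p = 0.0286, the smallest value this design allows, for each of the 7 genes without overlap.

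**Figure D2:**
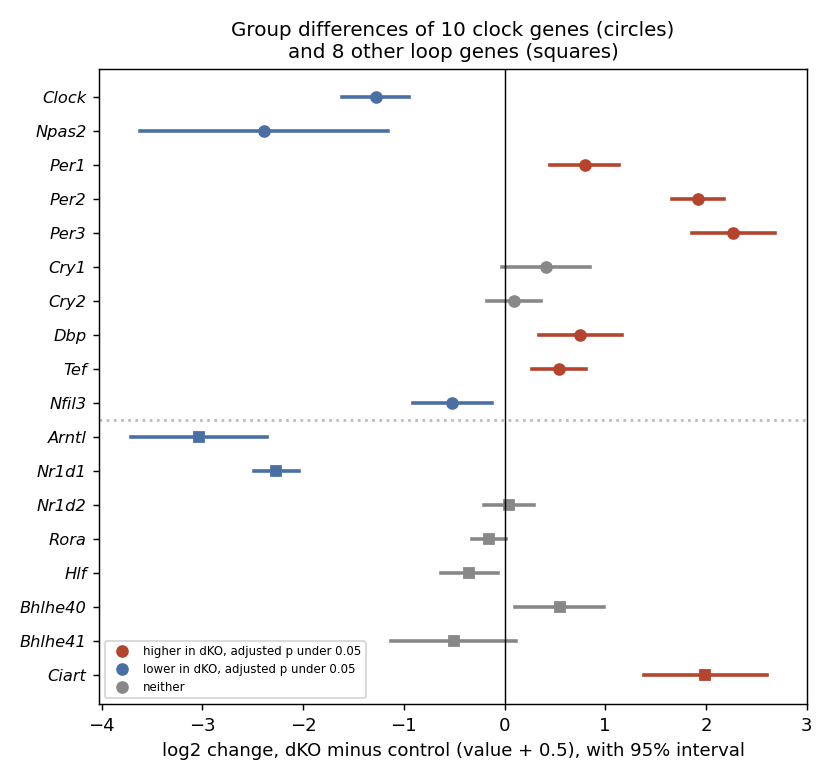
Group differences as log2 change, dKO minus control, on the log2(value + 0.5) scale (horizontal axis), for the 10 clock genes (circles) and 8 other genes of the loop (squares). Bars are limma's 95% intervals, red and blue mark genes higher and lower in dKO livers at an adjusted p under 0.05, and grey marks neither. Per3 (2.27) and Arntl (-3.03) lie at the ends, and the intervals of Cry1 and Cry2 include 0.

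Per length the PAR-bZIP activators were the most abundant of the 10 transcripts in both groups. Dbp stood at 620.1 normalised read counts per kilobase of exon in dKO livers and 377 in control livers, and Tef at 525 in dKO livers and 366 in control livers. Nfil3, at 150 per kilobase in dKO livers and 213 in control livers, stood next after them in control livers, while in dKO livers Per1 and Per2 also stood above it. Clock stood at 27.2 per kilobase in dKO livers and 65.9 in control livers. Npas2 stood at 0.892 per kilobase in dKO livers and 4.84 in control livers, the lowest of the 10 in either group.

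Ratios of 2 clock genes were also taken within each liver, as differences of log2(value + 0.5), in which the size factor nearly cancels. The log2 ratio of Per3 to Clock was 1.94, 1.25, 1.38 and 1.31 in dKO livers 1 to 4, against -2.76, -1.83, -2.39 and -1.34 in control livers 1 to 4. Per3 read counts thus exceeded those of Clock in every dKO liver and were below them in every control liver. The log2 ratio of Per3 to Npas2 was 7.18 to 9.49 in dKO livers and 2.16 to 4.50 in control livers, with no overlap. Its highest value is that of dKO 1, where Npas2 had a single read. Taken singly, Per3 was higher and Clock and Npas2 lower in every dKO liver than in any control liver. The ratios of Per3 to Clock and to Npas2 therefore could not overlap, and they restate the single genes. The log2 ratio of Per2 to Per1 was -0.87 to -0.36 in dKO livers and -2.20 to -1.38 in control livers, also with no overlap. The ratios of Cry1 to Cry2 and of Npas2 to Clock overlapped between groups. Log2 values were -2.75 to -1.44 in dKO livers and -2.56 to -2.11 in control livers for Cry1 to Cry2, and -7.55 to -5.91 in dKO livers and -6.33 to -4.55 in control livers for Npas2 to Clock.

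The ratio of Dbp to Nfil3, the activator and the repressor of D-boxes, overlapped between groups. Its log2 value was 3.37, 2.37, 2.84 and 1.93 in dKO livers 1 to 4, against 0.75, 1.85, 0.70 and 2.12 in control livers 1 to 4. Control 4 exceeded dKO 4, and controls 1 and 3 were the lowest of all livers. The log2 ratio of Dbp to Tef was -1.33 to -1.04 in dKO livers and -1.67 to -1.06 in control livers, so the ranges overlapped.

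**Figure D3:**
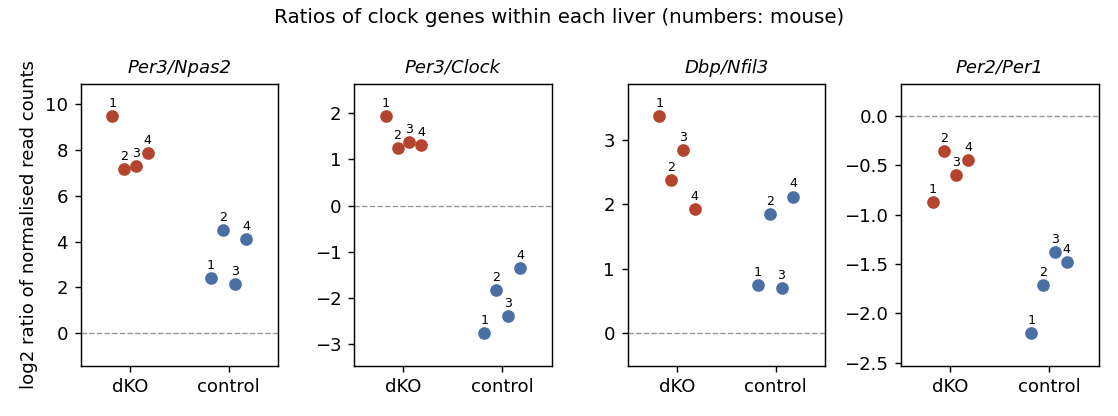
Log2 ratios of normalised read counts, each plus 0.5, within single livers (vertical axes) for 4 pairs of clock genes, with dKO livers in red left of control livers in blue and the mouse number beside each point. The groups do not overlap for Per3/Npas2, Per3/Clock and Per2/Per1, which for the ratios to Npas2 and Clock follows from the genes taken singly. For Dbp/Nfil3, control 4 (2.12) lies above dKO 4 (1.93).

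Livers of the same group also differed from each other in several clock genes at once. Among dKO livers, dKO 1 was the lowest for Clock, Npas2, Per2, Cry1, Nfil3 and Arntl and the highest for Per1, Cry2, Dbp and Tef. For Per3 it was neither, so the Per genes did not share an order. Among controls, controls 1 and 3 were higher than controls 2 and 4 for Npas2, Nfil3 and Arntl and lower for Per2, Per3, Dbp, Tef and Ciart. These within-group orders are descriptions of 4 livers each, and whether they follow the hour of collection was not tested, since no source used here gives it. The coefficient of variation among livers was 9.90% in dKO and 25.5% in control livers for Per1, 7.47% in dKO and 18.0% in control livers for Per2, and 11.4% in dKO and 31.6% in control livers for Per3. It was also lower in dKO livers for Cry2 (10.97% against 17.1% in control livers), Dbp (18.7% against 30.9%) and Tef (9.61% against 18.3%). It ran the other way for Cry1 (27.4% in dKO and 17.7% in control livers) and Nfil3 (25.4% in dKO and 20.3% in control livers). The same held for Npas2 (59.0% in dKO and 52.6% in control livers) and Clock (18.2% in dKO and 17.5% in control livers). The difference in spread was not tested.

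Another 8 genes of the loop were read in the same fit. Of these, 1 was higher, 2 lower and 5 neither, with a median log2 change of -0.25. Over all tested genes 38.2% were called, with a median of 0.03, and this count and those of the lists below are descriptions to be read beside it. Arntl, the partner of CLOCK and NPAS2, had 11.1, 17.6, 22.1 and 33.5 normalised read counts in dKO livers 1 to 4, against 195, 135, 212 and 127 in control livers 1 to 4. No dKO liver came near the controls (log2 change -3.03, SE 0.31, limma adjusted p = 9.52e-06). Nr1d1, the repressor of Arntl, averaged 609 ± 83.8 in dKO livers and 2911 ± 254 in control livers (SD, n = 4 each; log2 change -2.26, SE 0.10, limma adjusted p = 1.76e-08). Arntl and its repressor were thus both lower in dKO livers. Nr1d1 exons overlap Thra, a thyroid hormone receptor gene, on the opposite strand, and Thra averaged 274 ± 54.5 in dKO livers and 525 ± 78.9 in control livers (SD, n = 4 each; log2 change -0.94, limma adjusted p = 0.000254).

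Ciart, a repressor of CLOCK and BMAL1 activity, averaged 459 ± 49.4 in dKO livers and 127 ± 68.0 in control livers (SD, n = 4 each; log2 change 1.99, SE 0.28, limma adjusted p = 0.000127). The other loop genes did not pass the test. Nr1d2, the relative of Nr1d1, averaged 1827 ± 249 in dKO livers and 1767 ± 231 in control livers (SD, n = 4 each), with a log2 change of 0.05 and a 95% interval of -0.20 to 0.30. Hlf, the PAR-bZIP relative of Dbp and Tef, averaged 913 ± 92.9 in dKO livers and 1176 ± 229.6 in control livers (SD, n = 4 each; log2 change -0.35, SE 0.13, limma adjusted p = 0.0538). Without control 4 the adjusted p of Hlf was 0.00341. Bhlhe40, a repressor at E-boxes, had a log2 change of 0.55 (SE 0.20, limma adjusted p = 0.0505) and passed the test in 7 of the 18 other settings. Its relative Bhlhe41 had a log2 change of -0.50 (limma adjusted p = 0.193) and Rora one of -0.16 (limma adjusted p = 0.13).

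Clock proteins are modified by kinases and a deacetylase and marked for decay by ubiquitin ligases. Of 11 such genes, 2 were higher, 2 lower and 7 neither, with a median log2 change of -0.13, and 4 were lower without dKO 3. The share called was near the 38.2% of all tested genes. Csnk1e, which encodes casein kinase 1 epsilon, averaged 256 ± 31.9 in dKO livers and 144 ± 21.8 in control livers (SD, n = 4 each; log2 change 0.83, limma adjusted p = 0.000437). Fbxw11, a ligase subunit that recognises PER proteins, rose by 0.38 (limma adjusted p = 0.00139). Csnk1d, the relative of Csnk1e, fell by 0.24 (limma adjusted p = 0.0113) and Fbxl21, whose product binds CRY proteins, fell by 1.41 on the log2 scale (limma adjusted p = 0.000247).

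Genes that are rhythmic in liver did not move in a single direction. Of 10 such outputs, 4 were higher, 2 lower and 4 neither, with a median log2 change of 0.20. Nampt, which encodes an enzyme of NAD synthesis, averaged 2991 ± 379 in dKO livers and 804 ± 9.81 in control livers (SD, n = 4 each; log2 change 1.89, limma adjusted p = 2.15e-08). Noct, which encodes nocturnin, averaged 2246 ± 315 in dKO livers and 299 ± 178 in control livers (SD, n = 4 each; log2 change 3.05, limma adjusted p = 3.68e-06). Elovl3, a fatty acid elongase with higher levels in male liver, averaged 122 ± 62.5 in dKO livers and 3553 ± 819 in control livers (SD, n = 4 each; log2 change -5.02, limma adjusted p = 4.07e-07). Avpr1a, a vasopressin receptor, averaged 154 ± 37.1 in dKO livers and 679 ± 69.5 in control livers (SD, n = 4 each; log2 change -2.17, limma adjusted p = 1.15e-06).

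Described targets of the PAR-bZIP factors in liver were read next. Of 8 tested, 5 were higher and 3 lower, with a median log2 change of 0.79. Alas1, the rate-limiting enzyme of haem synthesis, averaged 26429 ± 2462 in dKO livers and 7155 ± 1428 in control livers (SD, n = 4 each; log2 change 1.90, limma adjusted p = 3.14e-07). Cyp2a4, a steroid hydroxylase gene, averaged 7515 ± 3829.9 in dKO livers and 84.9 ± 35.3 in control livers (SD, n = 4 each; log2 change 6.44, limma adjusted p = 5.48e-08), and its near-identical neighbour Cyp2a5 makes the split of reads between them uncertain. Nr1i3, which encodes the nuclear receptor CAR, averaged 418 ± 105 in dKO livers and 1226 ± 331 in control livers (SD, n = 4 each; log2 change -1.55, limma adjusted p = 9.51e-05). Cyp2b10, a target of CAR, averaged 179 ± 92.3 in dKO livers and 998 ± 271 in control livers (SD, n = 4 each; log2 change -2.61, limma adjusted p = 5.96e-05).

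**Figure D4:**
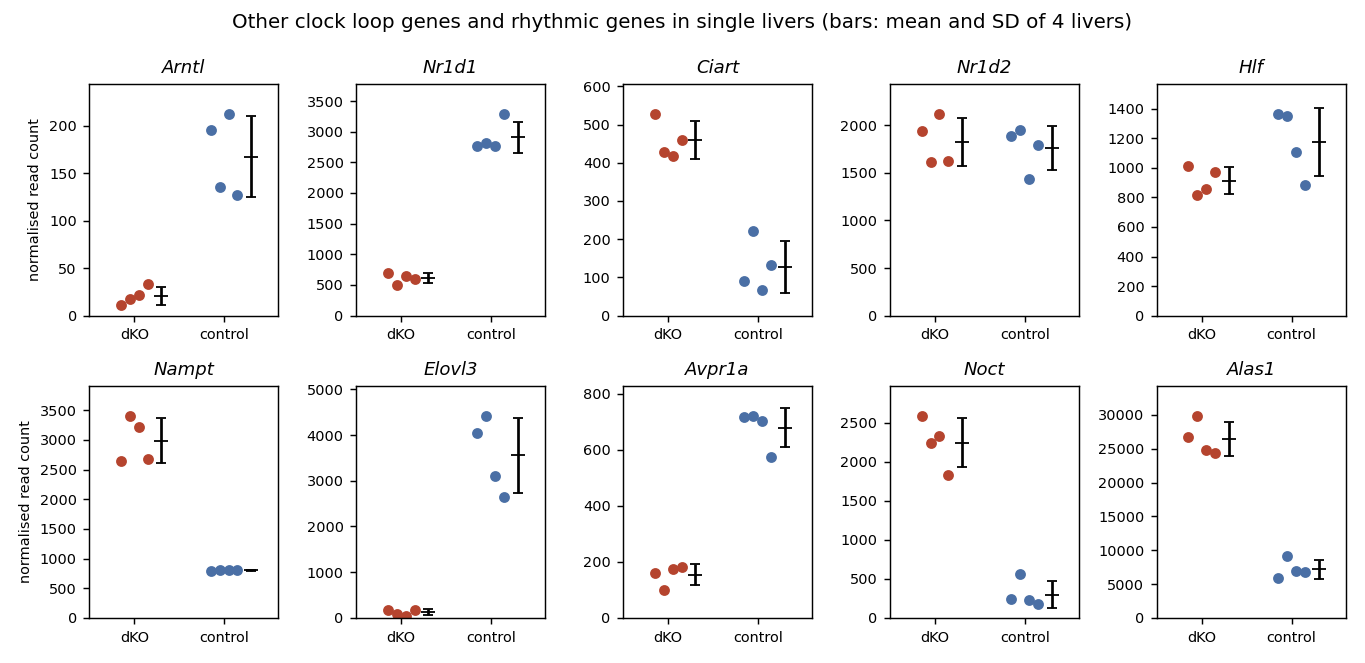
Normalised read counts (vertical axes, each starting at 0) of 5 other loop genes (top row) and of 4 rhythmic outputs and the PAR-bZIP target Alas1 (bottom row) in single livers, dKO in red left of control in blue. Points are mice 1 to 4 from left to right, and bars give the mean and SD of 4 livers. Nr1d2 and Hlf are the only genes drawn whose groups overlap.

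Hormones, food and temperature reach the liver clock, and genes that respond to them were counted as measured facts beside the clock genes. Their part in the clock values was not tested. Of 9 glucocorticoid-responsive genes, 4 were higher and 3 lower, with a median log2 change of 0.37. Sgk1 and Fkbp5 rose by 1.18 and 0.59, and Klf9 and Tsc22d3 fell by 1.14 and 0.56 on the log2 scale. Of 8 fasting genes, 4 were higher and 1 lower, with a median of 0.29, and 2 were higher and 2 lower without dKO 3. Angptl4, which encodes an inhibitor of lipoprotein lipase, fell by 1.22, while Igfbp1, Fgf21 and Pck1 rose by 1.59, 1.68 and 0.49. Of 6 feeding genes, 5 were higher and none lower, with a median of 1.11. Fasn (fatty acid synthase) rose by 1.84, Pnpla3 by 2.29, Scd1 by 1.40 and Acly by 0.82. Of 8 temperature-responsive genes, 3 were higher and 1 lower, with a median of 0.21. Rbm3 rose by 0.83, Hspa8 by 0.63 and Hspa1a by 1.23, and Hspb1 fell by 0.95. Cirbp, of the same list, had a log2 change of -0.34 and did not pass the test (limma adjusted p = 0.202). The groups overlapped for Fgf21, Scd1 and Hspa1a, whose calls held in 16, 17 and 12 of the 18 other settings.

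Markers of other cells of the liver also moved with genotype, and their part in the clock values was not tested. Of 11 leukocyte markers, 9 were higher, with none at 0 and a summed level of 9545 to 13663 in dKO livers and 3126 to 7669 in control livers. Control 4 was far above the other controls for Lyz2 (4457, the others 929 to 1230) and Itgam (427, the others 26.3 to 87.3). Its Itgam level exceeded that of every dKO liver. Control 4 was not the highest control for Ptprc, Csf1r, Adgre1 and Cd3e. All 5 bile duct markers were higher, with a summed level of 7754 to 12117 in dKO livers and 634 to 1522 in control livers, of which Spp1 held the most, but 3 were higher with quantile scaling, with robust variances, or without dKO 1, dKO 4, control 2 or control 3. Of 5 stellate cell markers 3 were higher, with a summed level of 2188 to 3035 in dKO livers and 1277 to 2073 in control livers. Of 5 endothelial markers 2 were higher, with a summed level of 5594 to 6949.5 in dKO livers and 4546 to 5564 in control livers. The hepatocyte markers had a median log2 change of -0.12, with 1 higher and 2 lower of 7. Fga was higher (log2 change 0.63, limma adjusted p = 0.00732). Ttr (log2 change -0.87, limma adjusted p = 0.000132) and Hnf4a (-0.41, limma adjusted p = 0.00337) were lower. Mitochondrially encoded genes took 3.09% to 3.70% of values in dKO livers and 4.06% to 4.74% in control livers.

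Genes whose pattern over the 8 livers was most like that of each clock gene were sought among 11270 genes whose mean reached 50. The measure was the root mean square difference between log2 profiles centred on their own means, so a small value means close profiles. Profiles were not scaled, so 2 genes that both vary little also lie close. Values of different clock genes therefore do not rank how alike the patterns are. For genes that differed between groups, the profile includes that difference. Tef had the closest neighbour, Mknk2, at 0.05, followed by Cry2 with Ncoa3 at 0.087 and Per1 with Lrp4 at 0.093. The nearest to Per2 were Stk10 and Alas1, both at 0.14, and Pak1 at 0.14. Clock was nearest to Dtx4 at 0.13, Per3 to Arhgap44 at 0.17 and Dbp to E2f1 at 0.18. Cry1 was nearest to Flvcr1 at 0.14 and Nfil3 to 6720427I07Rik at 0.13. Npas2, with few reads, had no close neighbour. Gm8941 stood nearest to it at 0.55, and Arntl was among its 3 nearest at 0.63.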

How the data were processed

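Liver RNA of 4 dKO and 4 control mice was sequenced, and the labels number the mice separately, so each library stands for 1 animal. The tests set the group difference against the variation between animals, with variances moderated over genes. A factor shared by all mice of a group is not covered by the p-values. The authors deposited 1 table of 22052 genes whose signal values are normalised read counts: every value in a library is a whole multiple of 1 step (100% within 0.001 of a whole number), as counts divided by a size factor are. Dividing by the step gave back the reads. Tools named per the submitters' processing notes were HISAT2 2.0.5, featureCounts 1.5.0-p3, fastp and DESeq2, with the build mm10. The sources used here state no role or order for them, and no annotation, strand setting or filter. The table's name calls the values FPKM, but no division by gene length is seen in them.

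Symbols were matched for 21796 identifiers. Positions, exon lengths and 3′ untranslated regions are from GENCODE M21, and promoter windows from RefSeq. Values were tested as log2(value + 0.5) for 20055 genes with a mean of 0.5 or more, in R 4.3.3 by limma 3.58.1 with trended eBayes variances and group as the only term. P-values were 2-sided, adjusted by Benjamini-Hochberg and called under 0.05. The procedure was run on simulated counts in which far fewer genes changed than were called here. That run required only that most of the larger changes were called and that called changes had the right direction. It set no limit on false calls. Exact permutation tests covered all 70 assignments (scipy 1.17.1, Python 3.11.15). A floor of 3 reads per library equals 2.55 to 3.43 normalised read counts and covers counting error only. Other settings were pseudocounts of 1 and 5, no filter, a mean of 10, quantile and TMM scaling, robust variances, a replicate block, edgeR 4.0.16 and DESeq2 1.42.0 on the recovered reads, and leaving out each liver.

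The 10 genes, the other lists and the tests were chosen with earlier results of these data known. Named genes are the 10, the ZFP36 family, up to 4 called genes with the smallest adjusted p of each other list, and the 3 genes nearest in pattern. The remaining loop genes are given in addition, and a few genes of the lists are not reported here.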

Additional observations from a re-analysis of the deposited data

Results flagged for a closer look

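A single liver stood apart from the other 3 of its group in 13 of 130 gene groups, by Dixon's test of the gap to the nearest liver over the group's range. Chance gives about 1 in 20 such groups. None of the 10 clock and PAR-bZIP genes was among them.

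Among dKO livers, Fasn was 39358.7 in dKO 3, against 11128.2 to 15573.1 in the others. Fkbp5 was 3109.8, Zfp36l1 267.2 and Laptm5 1593.1 in dKO 4, with the other dKO livers at 2225.2 to 2299.8, 209.5 to 214.2 and 1193.6 to 1248.0. Tsc22d3 was 1568.7 in dKO 1, against 1826.0 to 1854.8 in the others, and Fbxw11 was 906.1 in dKO 2, against 947.3 to 953.8.

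Among control livers, control 4 stood apart for the loop gene Nr1d1 (3290.3, the others 2767.4 to 2816.3) and the rhythmic output Avpr1a (575.3, the others 703.7 to 720.2). It also did for Cd68 (252.7, the others 157.1 to 171.4), Des (159.0, the others 76.9 to 90.5) and Spp1 (1246.6, the others 476.5 to 600.7). Noct was 562.2 in control 2, against 172.7 to 238.2 in the others. Zfp36l2, 1 of the targeted genes, was 997.1 in control 3, against 1722.0 to 1819.6 in the others.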

How the results depend on the processing

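Clock, Npas2, Per1, Per2, Per3, Dbp and Tef kept their direction and their call in all 18 other settings. Nfil3 lost its call in 7, with log2 changes of -0.52 with robust variances (adjusted p = 0.0531) and -0.52 with the replicate block, and of -0.67 to -0.38 over the fits that leave out a liver. Cry1 ran from 0.27 to 0.59 over those fits. Leaving out a liver moved Cry2 over -0.0054 to 0.1936 and Nr1d2 over -0.0486 to 0.104, with the sign turned without control 3 for both and without dKO 3 (-0.0269) for Nr1d2. None was near the threshold, and the cause was not tested. Of the 10 genes, 5 or 6 were higher and 2 or 3 lower in every setting. Same-numbered livers correlated at -0.0693 to 0.0769 in their deviations from group means, and differently numbered livers at -0.123 to 0.0578. Such low values show no pairing by number, but they cannot exclude that mice were matched by number. With the replicate block, 5 of the 10 genes were higher and 2 lower, and 4021 genes higher and 3112 lower, against 4244 and 3410 without it. Quantile scaling moved the median of all genes by -0.11 on the log2 scale and gave 3638 higher and 4312 lower genes, but 5 and 3 of the 10. In edgeR 3893 genes were higher and 3382 lower, and in DESeq2 4103 and 3417. Leaving out a liver gave 3671 to 4296 higher and 2917 to 3305 lower. Of the other lists, bile duct markers higher fell to 3 with quantile scaling and with robust variances, and to 3 to 5 without a liver. Loop genes higher were 2 with pseudocounts of 1 and 5, no filter, quantile scaling and DESeq2, and 1 to 2 without a liver. Without a liver, temperature genes lower were 1 to 2, kinases and ligases lower 2 to 4, fasting genes higher 2 to 4 and fasting genes lower 1 to 2. Depth limits Npas2 most, with a single read in dKO 1.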
